A study of Mus musculus with 9 samples.

Results

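The X-linked genes followed here belong to the brain-expressed X-linked (Bex) and transcription elongation factor A-like (Tceal) families and were measured in the E18.5 mouse heart. They are *Bex1*, *Bex2*, *Bex4*, *Tceal1*, *Tceal7* and *Tceal8*. These 6 genes were taken by name from the 24597 gene symbols of the expression table, and all 6 were measured in all 9 hearts. The 6 names were chosen with their levels in these hearts already known, so the values below describe them, and no p-value is given for any of them. The hearts came from E18.5 embryos of mice that carried no *Ctcf* mutation (wild type), the R567W missense allele of *Ctcf* on 1 chromosome (heterozygous) or the same allele on both (homozygous), with 3 hearts in each group. *Ctcf* encodes the zinc-finger protein CTCF, which binds DNA and organises chromatin loops, and the allele was made by CRISPR/Cas9 editing in C57BL/6N mice and is not limited to a cell type. The comparison asks how the transcripts of the heart differ with the number of mutant alleles. Each library was made from 1 whole heart, and levels are in TPM, a length-corrected share of all transcripts in a library that sums to about the same total in each.

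The Bex and Tceal genes stand close together on the X chromosome of placental mammals and encode small proteins. The families are best known from the nervous system: BEX1 and BEX3 (*Ngfrap1*) bind the p75 neurotrophin receptor, and BEX4 binds alpha-tubulin. In heart muscle, BEX1 has been described as part of a complex that stabilises inflammatory mRNAs with AU-rich elements. The Tceal proteins resemble part of the elongation factor TFIIS, and *Tceal7* has been described in skeletal muscle formation and as a repressor of NF-kB and Myc activity.

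In hearts homozygous for R567W, *Bex1* stood at 75.7 TPM and *Tceal7* at 7.12 TPM, against wild-type means of 151 and 21.8 TPM. The other 4 members stood at 0.824 to 1.28 times their wild-type means. *Bex1* and *Tceal7* overlap each other head to head on opposite strands, and *Tceal5*, the next gene on the other side of *Bex1*, was at 22.7 TPM against 42.9 TPM. In heterozygous hearts *Bex1* and *Tceal7* lay nearer to wild type than to homozygous hearts.

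The members lie in 2 places on the mm10 assembly (GENCODE M21 annotation). All but *Tceal1* stand close together: *Bex2* (ENSMUSG00000042750, chromosome X, 136066564 to 136068236, minus strand), *Bex4* (ENSMUSG00000047844, 136138996 to 136140443, plus strand), *Tceal8* (ENSMUSG00000051579, 136168984 to 136172342, minus strand), *Bex1* (ENSMUSG00000050071, 136213972 to 136215513, minus strand) and *Tceal7* (ENSMUSG00000079428, 136214779 to 136226100, plus strand). *Tceal1* (ENSMUSG00000049536, 136707982 to 136711478, plus strand) starts 493 kb from the start site of *Bex1*. Each is annotated as protein coding.

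The sequences before the start sites show how alike some of these genes are. The 250 bases upstream of *Bex1* and *Bex4* are shown because they are nearly the same sequence while the transcripts differed in how far they were from wild type, and those of *Tceal7* because its level was lowest relative to wild type. Each runs from the distal end to the base before the start site (RefSeq, GRCm38.p6, the same assembly as mm10), and capitals mark CCCTC or its reverse complement GAGGG, the word that gave CTCF its name.
Bex1, chrX:136215514-136215763, minus strand: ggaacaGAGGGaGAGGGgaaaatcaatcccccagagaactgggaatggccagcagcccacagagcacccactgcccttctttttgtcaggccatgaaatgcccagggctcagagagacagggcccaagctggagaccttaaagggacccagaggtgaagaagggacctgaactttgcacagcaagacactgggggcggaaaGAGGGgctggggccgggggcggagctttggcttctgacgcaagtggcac
Bex4, chrX:136138746-136138995, plus strand: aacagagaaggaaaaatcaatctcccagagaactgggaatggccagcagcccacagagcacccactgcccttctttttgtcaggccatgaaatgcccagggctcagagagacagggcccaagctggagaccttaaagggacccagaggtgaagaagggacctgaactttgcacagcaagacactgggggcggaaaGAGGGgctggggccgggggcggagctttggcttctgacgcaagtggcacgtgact
Tceal7, chrX:136223791-136224040, plus strand: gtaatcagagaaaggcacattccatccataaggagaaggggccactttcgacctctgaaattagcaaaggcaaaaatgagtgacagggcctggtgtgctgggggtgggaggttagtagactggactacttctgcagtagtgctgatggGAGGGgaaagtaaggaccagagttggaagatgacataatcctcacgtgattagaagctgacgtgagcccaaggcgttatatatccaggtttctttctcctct

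The *Bex1* and *Bex4* windows held 241 identical bases among 244 aligned, with an unbroken shared run of 221 bases, although the start sites lie 76.5 kb apart. The other close pair was *Bex2* with *Bex3*, with 181 identical bases among 206 aligned and a shared run of 145. All other pairs of Bex and Tceal promoters had a longest shared run of 12 bases or fewer. The *Tceal7* window belongs to the downstream start of the gene and shared no run longer than 9 bases with *Bex1*. The CCCTC word, counted on both strands, occurred 3 times before *Bex1*, once before *Bex4* and once before *Tceal7*, and 60.5% of the 32817 promoters in the table hold it at least once. These matches are counts of letters in the window and not binding sites.

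The transcripts themselves also share sequence, which bears on how reads could be assigned. *Bex1* and *Tceal7* overlap over 735 bases, of which 223 are exonic in both genes, 18.8% of the exonic bases of *Bex1* and 18.3% of those of *Tceal7*. All 223 come from the *Tceal7* transcript Tceal7-202, which starts inside *Bex1*, while Tceal7-201, which starts at 136224041, shares none. Tceal7-202 spans more of the chromosome but has fewer exonic bases, 453 against 971 for Tceal7-201. Of the 31-base words of *Bex1* transcripts, 30.0% occur on the same strand in another gene, most often *Bex4*, which holds 17.9% of them. The share was 59.9% for *Bex4*, most often with the predicted gene Gm12245, and 35.5% for *Bex2*, most often with *Bex3*. It was 1.97% for *Tceal8*, 0.036% for *Tceal1* and 0% for *Tceal7*, of whose words 14.9% occur antisense in another gene, mostly *Bex1*. The counting tool divides reads that fit several transcripts by estimate, and whether strand was used is not given in the sources used here. Without strand, reads from the part common to *Bex1* and *Tceal7* cannot be told apart.

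The hearts carried the markers of heart muscle: the summed level of 10 cardiomyocyte genes was between 22810 and 34690 TPM in all 9 libraries, and none of the 10 had a mean under 1 TPM. Since Bex and Tceal genes are rich in neurons, 16 neuron genes were summed as well, and 12 of them had a mean under 1 TPM. The sum ran from 65.9 to 72.2 TPM for wild type, 68.0 to 79.3 TPM for heterozygotes and 60.9 to 84.0 TPM for homozygotes. Most of it was *Uchl1*, with means of 55.7, 58.3 and 57.8 TPM in the same order, so the sum says little about the other neuron genes. Transcripts of neighbouring organs were highest in 3 libraries. Airway and lung genes (12 genes) reached a sum of 3628 TPM (wild-type replicate 1) and 1635 TPM (heterozygous replicate 1), liver genes (15 genes) 4206 TPM (heterozygous replicate 1) and thymocyte genes (15 genes) 781 TPM (homozygous replicate 3). For airway and lung genes, homozygous replicate 1 (78.2 TPM) and wild-type replicate 2 (58.5 TPM) followed, and the 5 lowest libraries ranged from 2.55 to 7.63 TPM. *Xist*, the RNA of the inactive X chromosome, was at 87.8 to 146 TPM in wild-type replicate 1, all 3 heterozygous hearts and homozygous replicate 1, and at 0.02 to 0.05 TPM in the other 4, so sex and genotype were not balanced for these X-linked genes. *Ctcf*, the edited gene, had means of 30.1 ± 3.77, 35.2 ± 3.02 and 43.5 ± 5.95 TPM with 0, 1 and 2 mutant alleles (SD, n = 3 each), and since the edit changes 1 amino acid its level does not check the genotype labels.

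Over all 9 hearts, genotypes pooled, the highest mean was that of *Tceal8* (135 TPM), followed by *Bex1* (121 TPM), *Bex4* (75.1 TPM), *Tceal7* (15.7 TPM), *Tceal1* (4.90 TPM) and *Bex2* (2.63 TPM). The order of the first pair depended on genotype: the mean of *Bex1* was above that of *Tceal8* in wild type (151 against 141 TPM), level with it in heterozygotes (135 TPM each) and below it in homozygotes (75.7 against 128 TPM), where the ranges did not overlap. *Bex1* exceeded *Bex4* in 8 of 9 libraries and *Tceal7* exceeded *Tceal1* in 8 of 9; the exception in each case was a homozygous heart. *Bex4* was above *Tceal7* in all 9 libraries without overlap, the lowest *Bex4* value being 58.0 TPM and the highest *Tceal7* value 25.0 TPM. *Tceal1* was above *Bex2* in 9 of 9 libraries, although the lowest *Tceal1* value, 3.96 TPM, lay beside the highest *Bex2* value, 3.97 TPM.

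**Figure D1:**
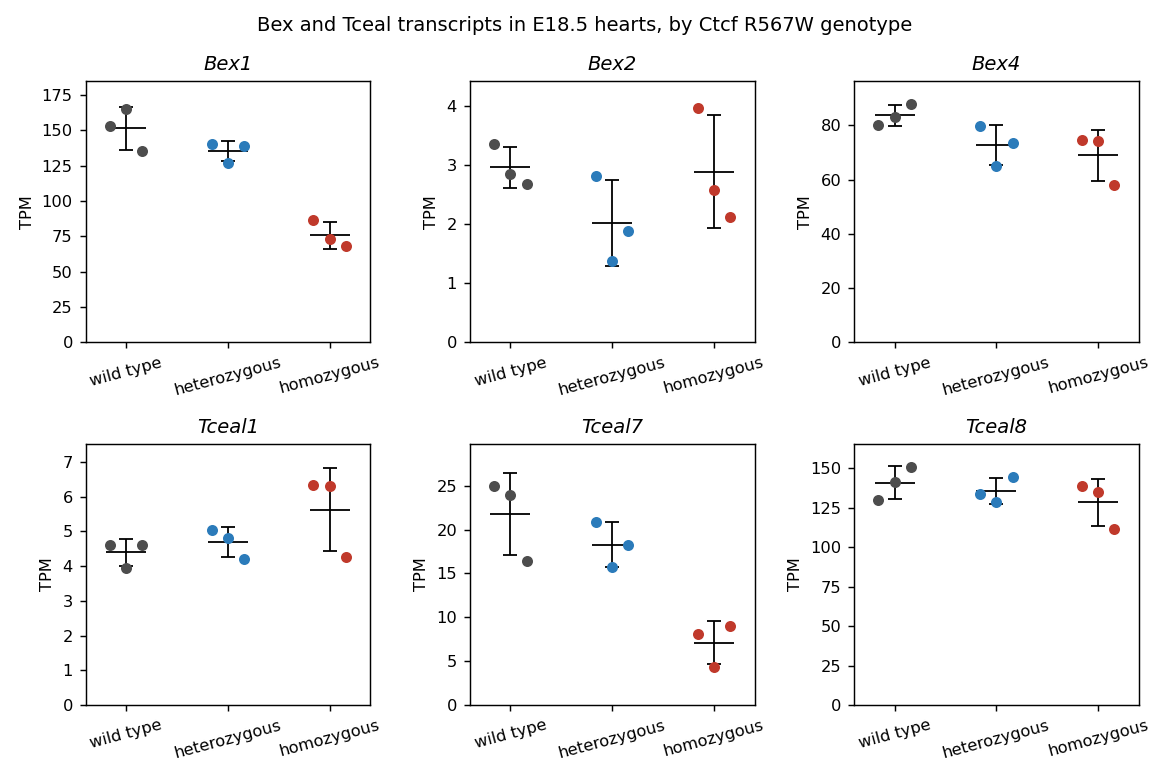
Levels of the 6 members in TPM (vertical axis, from 0) in each heart, by genotype (horizontal axis); points are single hearts, the long bar is the group mean and the whiskers are the SD (n = 3). The homozygous points of *Bex1* and *Tceal7* lie below all other points, while those of *Bex2*, *Tceal1* and *Tceal8* overlap the wild-type points.

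The 3 wild-type hearts held *Bex1* at 153, 165 and 136 TPM, the heterozygotes at 140, 127 and 139 TPM and the homozygotes at 86.3, 72.9 and 67.9 TPM. Every homozygous heart was below every heart of the other groups, and the wild-type and heterozygous ranges overlapped. The mean for wild type was 151 ± 14.9 TPM, for heterozygotes 135 ± 7.24 TPM and for homozygotes 75.7 ± 9.55 TPM (SD, n = 3 each). On the log2(TPM + 1) scale, homozygous hearts differed from wild type by −0.99 (SE 0.12) and from heterozygous hearts by −0.84 (SE 0.12), and heterozygous hearts from wild type by −0.16 (SE 0.12). *Bex1* made up 37.3 ± 2.82% of the summed TPM of the 6 members for wild type, 36.8 ± 0.306% for heterozygotes and 26.2 ± 1.33% for homozygotes. The sum itself was 405 ± 13.7 TPM, 368 ± 22.7 TPM and 289 ± 33.3 TPM in the same order.

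*Bex4*, whose upstream sequence is nearly that of *Bex1*, had wild-type values of 80.2, 83.3 and 87.7 TPM, heterozygous values of 79.7, 65.1 and 73.5 TPM and homozygous values of 74.6, 74.3 and 58.0 TPM. All mutant hearts were below all wild-type hearts, but heterozygous replicate 1 missed the lowest wild-type heart by less than 1 TPM. The differences were −0.28 (SE 0.13) for homozygous against wild type, −0.08 (SE 0.13) against heterozygous and −0.20 (SE 0.13) for heterozygous against wild type. With median-ratio scaling the first of these was −0.52. Because *Bex1* and *Bex4* share part of their transcript sequence, their sum was also taken, an alternative added after the data were seen. It averaged 235 ± 12.6 TPM for wild type, 208 ± 14.4 TPM for heterozygotes and 145 ± 17.6 TPM for homozygotes, a log2 difference of −0.70 (SE 0.11) between homozygous and wild-type hearts.

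*Bex2* was close to the lower limit of what was tested. Its wild-type values were 3.36, 2.86 and 2.69 TPM, its heterozygous values 2.82, 1.38 and 1.89 TPM and its homozygous values 3.97, 2.58 and 2.13 TPM. The groups overlapped in all comparisons, and the highest and lowest homozygous hearts differed 1.86-fold from each other. The log2 difference between homozygous and wild-type hearts was −0.05 (SE 0.24), within the spread of the replicates, and that between heterozygous and wild-type hearts was −0.41 (SE 0.24).

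The wild-type hearts held *Tceal7* at 25.0, 23.9 and 16.4 TPM, the heterozygotes at 20.9, 15.8 and 18.3 TPM and the homozygotes at 8.06, 4.29 and 9.01 TPM. The homozygous hearts lay below all others, and wild-type replicate 3 lay among the heterozygous hearts. In the same order these averaged 21.8 ± 4.69, 18.3 ± 2.55 and 7.12 ± 2.50 TPM (SD, n = 3 each). The log2 difference was −1.52 (SE 0.25) between homozygous and wild-type hearts, −1.29 (SE 0.25) between homozygous and heterozygous hearts and −0.23 (SE 0.25) between heterozygous and wild-type hearts. With *Bex1* and *Tceal7* summed, as the overlapping pair, the level ran from 152 to 189 TPM for wild type, 143 to 161 TPM for heterozygotes and 76.9 to 94.4 TPM for homozygotes, a log2 difference of −1.05 (SE 0.12) between homozygous and wild-type hearts.

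*Tceal8*, the nearest member to *Bex1* on the *Bex4* side, had wild-type values of 130, 141 and 151 TPM, heterozygous values of 134, 128 and 144 TPM and homozygous values of 139, 135 and 111 TPM. Homozygous replicate 3 was the lowest of the 9 and the other homozygous hearts lay within the wild-type range. The log2 differences were −0.14 (SE 0.11) for homozygous and −0.05 (SE 0.11) for heterozygous against wild type. With median-ratio scaling the first of these was −0.38. *Tceal1*, the member farthest from *Bex1*, had wild-type values of 4.62, 3.96 and 4.60 TPM, heterozygous values of 5.05, 4.82 and 4.20 TPM and homozygous values of 6.34, 6.30 and 4.25 TPM. Homozygous replicates 1 and 2 were above all others and homozygous replicate 3 was within the wild-type range. The log2 difference of *Tceal1* between homozygous and wild-type hearts was 0.28 (SE 0.17), close to the median of 0.23 over all genes, and it was −0.03 with quantile normalization.

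Tests covered the 13682 genes whose mean reached 1 TPM. The median log2 difference of the 6 members between homozygous and wild-type hearts was −0.21, against 0.23 for all genes tested and 0.24 for the 460 X-linked genes tested. Between homozygous and heterozygous hearts it was −0.08 against 0.08 for all genes and 0.10 for X-linked genes, and between heterozygous and wild-type hearts −0.18 against 0.15 and 0.13. TPM are shares of a fixed total, and 81.7% of all genes had a log2 difference above 0 between homozygous and wild-type hearts. With median-ratio scaling the median of all genes was 0.02, and that of the members −0.45. These comparisons share samples with each other, the homozygous hearts in the first and second and the wild-type hearts in the first and last.

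**Figure D2:**
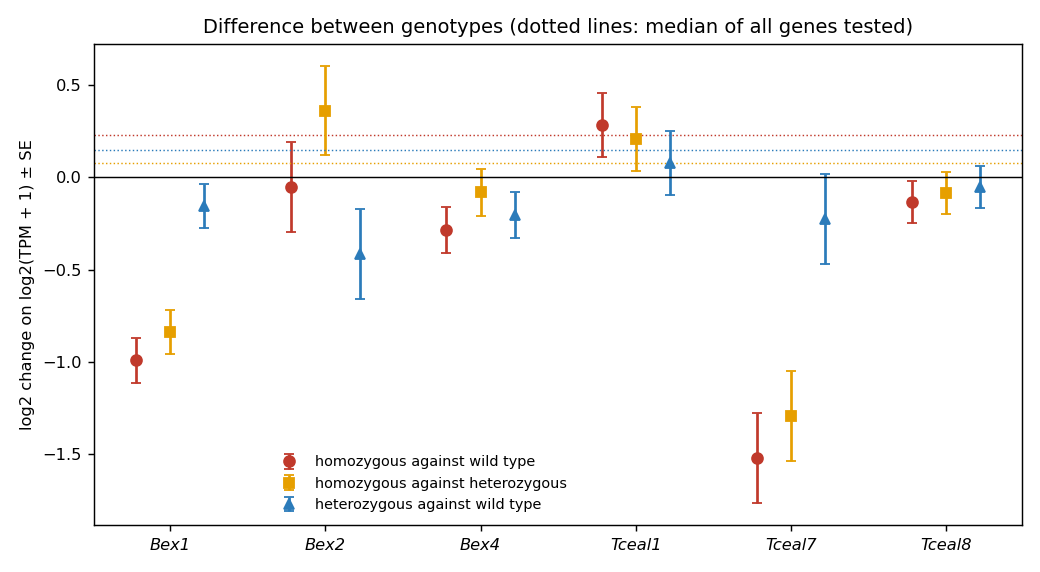
Log2 difference on the log2(TPM + 1) scale (vertical axis) for each member (horizontal axis) in the 3 comparisons of genotypes; bars are the SE of the fit and dotted lines the medians of all genes tested (0.23, 0.08 and 0.15). *Bex1* and *Tceal7* lie at −0.99 and −1.52 for homozygous against wild type, and no value of heterozygous against wild type lies below −0.41.

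A gene was called when its limma adjusted p (Benjamini-Hochberg over all genes tested) was under 0.05. Between homozygous and wild-type hearts 0.146% of all genes tested were called lower and 0.190% were called higher. Among the 6 members 2, *Bex1* and *Tceal7*, were called lower and 0 were called higher. They were also the 2 genes called lower among the 460 X-linked genes, of which 2 others were called higher. In all, 3 members (*Bex1*, *Bex4* and *Tceal7*) were lower without overlap between the groups, as were 2.38% of all genes, and 0 were higher without overlap, as were 22.3% of all genes. Since these differences helped to choose the members, nothing is read from the counts. The count of 2 was 0 in the fits without wild-type replicate 1 or 2. It was 1 (*Bex1*) when any 1 heterozygous heart, homozygous replicate 1 or homozygous replicate 2 was left out. Over the 9 fits without 1 library, log2 differences ran from −1.09 to −0.92 for *Bex1* and from −1.70 to −1.24 for *Tceal7*. Leaving out a heterozygous heart cannot change these differences.

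Between homozygous and heterozygous hearts 0.0439% of all genes were called by limma and 0 members. The groups did not overlap for 15.9% of all genes and for 2 members, *Bex1* and *Tceal7*. Between heterozygous and wild-type hearts 0.0146% of all genes were called and 0 members. The groups did not overlap for 13.8% of all genes and for 1 member, *Bex4*. Weighting of the libraries called *Bex1* and *Tceal7* in the first of these comparisons and *Bex1* in the second. The share of all genes called with that weighting is not given here, and nothing is read from these calls.

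Some sums of marker genes did not overlap between homozygous and wild-type hearts. The 8 smooth-muscle genes had sums of 1832 to 1925 TPM (wild type), 1530 to 1932 TPM (heterozygotes) and 1128 to 1633 TPM (homozygotes), without overlap between the first and the last, and none of the 8 had a mean under 1 TPM. *Myl9* and *Acta2* had the highest wild-type means of the 8 (906 and 501 TPM). They and *Cnn1* were the 3 genes lower without overlap in homozygous hearts, as were 2.38% of all genes. The study ties *Cnn1* and *Myl9* to heart muscle contraction or mitochondrial function, so they are not read as markers of smooth muscle alone. *Myh11*, *Tagln*, *Des* and *Lmod1* overlapped between these groups (log2 −0.19, −0.52, −0.08 and −0.16), as did *Smtn*, which was higher (0.19). The 9 Schwann cell genes, 6 of them with a mean under 1 TPM, had sums of 9.88 to 12.7 TPM (wild type), 11.9 to 15.4 TPM (heterozygotes) and 14.5 to 17.1 TPM (homozygotes). The 15 thymocyte genes had sums of 3.27 to 5.10 TPM (wild type), 3.57 to 5.13 TPM (heterozygotes) and 5.38 to 781 TPM (homozygotes). The highest of these was homozygous replicate 3. The part of the cells of these lists in the levels of *Bex1* and *Tceal7* was not tested. In whole hearts, fewer cells of a type and less RNA per cell cannot be told apart. Within male hearts (2 homozygous against 2 wild-type) the log2 difference was −1.08 for *Bex1* and −1.52 for *Tceal7*, and between the 1 female heart of each group it was −0.82 and −1.52. Without the 3 libraries with the most transcripts of other organs, neither gene was called. Both lacked overlap between these groups in the full set, which leaving out libraries cannot change.

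The other genes of both families were taken by name, with earlier results of these data known, and their tests are given with that limit. *Tceal5* lies between *Tceal8* and *Bex1*, with its start site 11.6 kb from that of *Bex1*. Its wild-type values were 36.7, 49.0 and 43.0 TPM, its heterozygous values 40.6, 32.1 and 30.9 TPM and its homozygous values 32.4, 19.1 and 16.5 TPM. Every homozygous heart was below every wild-type heart, and homozygous replicate 1, a female, was within the heterozygous range. The log2 difference between homozygous and wild-type hearts was −0.94 (SE 0.22), which did not pass (limma adjusted p 0.0970). In the alternatives the adjusted p ranged from 0.00255 to 0.335, and it was 0.0319 without homozygous replicate 1, 0.0486 without wild-type replicate 3 and 0.0366 with median-ratio scaling. The log2 difference was −1.32 within male hearts and −0.18 between the female hearts, a contrast that was not tested. Heterozygous hearts differed from wild type by −0.31 and homozygous from heterozygous hearts by −0.63, but with sex as a covariate the values were −0.48 and −0.46, so their place between the groups depended on the fit. Of the 31-base words of *Tceal5*, 28.1% occur in another gene on the same strand, most often in *Tceal6*.

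The genes on the other side of *Bex1* and *Tceal7* were among the most abundant of the families and lay near their wild-type levels in TPM. *Wbp5* (Tceal9), whose start site is 29.6 kb from that of *Bex1*, averaged 203 ± 17.0 TPM for wild type, 185 ± 6.91 TPM for heterozygotes and 204 ± 20.0 TPM for homozygotes (SD, n = 3 each). *Ngfrap1* (Bex3), the p75-associated member at 54.7 kb, averaged 160 ± 13.6, 158 ± 8.72 and 155 ± 19.3 TPM. The log2 differences between homozygous and wild-type hearts were 0.01 (SE 0.11, limma adjusted p 0.976) for *Wbp5* and −0.05 (SE 0.12, adjusted p 0.804) for *Ngfrap1*. *Tceal3* averaged 1.22 ± 0.389 TPM for wild type and 1.93 ± 1.37 TPM for homozygotes (0.27, SE 0.39, adjusted p 0.658), and *Tceal6*, with group means between 0.357 and 0.787 TPM, was under the filter on low values.

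**Figure D3:**
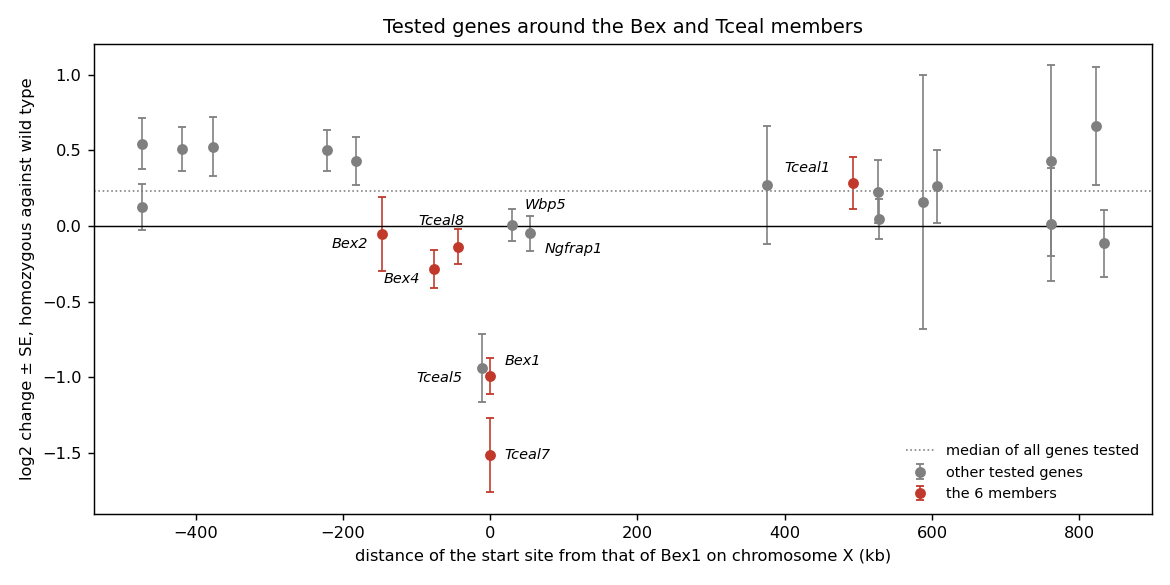
Log2 difference between homozygous and wild-type hearts (vertical axis, bars are the SE) for each tested gene within 500 kb of the members, by the distance of its annotated start site from that of *Bex1* on chromosome X (kb, horizontal axis). For *Tceal7* this is the start of the transcript that begins inside *Bex1*. *Tceal5*, *Bex1* and *Tceal7* lie between −0.94 and −1.52 within 11.6 kb, and *Tceal8*, *Wbp5* and *Ngfrap1* beside them lie between −0.14 and 0.01.

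The Armcx and Gprasp genes, which lie in the same part of the X chromosome, had a median difference near that of all genes. All 9 had a log2 difference above 0 between homozygous and wild-type hearts, with a median of 0.28 against 0.23 for all genes, but 3 of them were below 0 with median-ratio scaling, 3 with quantile normalization, 2 with weighted libraries and 1 without wild-type replicate 1. None of the 9 passed the limma test, and 4 had an unadjusted p under 0.05, as did 25.0% of all genes. *Gprasp1*, which encodes a sorting protein for G-protein-coupled receptors, averaged 20.1 ± 3.49, 23.5 ± 0.319 and 29.9 ± 5.77 TPM in the same order of genotypes (0.55, SE 0.17, adjusted p 0.120). *Bhlhb9* (Gprasp3) averaged 30.7 ± 4.86, 35.4 ± 3.78 and 43.9 ± 4.77 TPM (0.51, SE 0.15, adjusted p 0.113). *Armcx1* went from 14.7 to 20.6 TPM (0.47, SE 0.15, adjusted p 0.121), *Gprasp2* from 7.58 to 11.2 TPM (0.52, SE 0.19, adjusted p 0.149) and *Armcx2* from 41.3 to 51.1 TPM (0.28, SE 0.16, adjusted p 0.266). *Armcx3*, *Armcx4*, *Armcx5* and *Armcx6* had log2 differences of 0.20, 0.25, 0.13 and 0.07, with adjusted p between 0.343 and 0.783. Without wild-type replicate 3, *Armcx1* (adjusted p 0.0238), *Bhlhb9* (0.0323) and *Gprasp1* (0.0408) passed. In that fit the median of all genes was 0.31. The share of all genes called in it is not given here, and nothing is read from these calls.

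Of the 26 genes in the table that lie with the members within 500 kb of the stretch they span, 18 were tested. Between homozygous and wild-type hearts limma called 0 of them, and 6 had an unadjusted p under 0.05, against 25.0% of all genes. Of the 18 genes, 15 had a log2 difference above 0, and the median of 0.25 was near that of all genes. *Tceal5* was the 1 gene lower without overlap, as were 2.38% of all genes. Another 4 genes were higher without overlap, as were 22.3% of all genes. In the other comparisons limma also called 0 of the 18, with 4 at an unadjusted p under 0.05 between homozygous and heterozygous hearts (7.15% of all genes) and 1 between heterozygous and wild-type hearts (6.87%).

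Genes of the processes in which these proteins have been described were counted by list, where 25.0% of all genes had an unadjusted p under 0.05 between homozygous and wild-type hearts. Of 17 tested genes of transcription elongation, the process that Tceal proteins are named after, limma called 0 between homozygous and wild-type hearts (6 at an unadjusted p under 0.05), with a median log2 difference of 0.34. Of 10 tested genes of neurotrophin signalling, the pathway of the p75 receptor, 0 were called (3 unadjusted) with a median of 0.32. Of 8 tested myogenic and NF-kB or Myc genes linked to *Tceal7*, 0 were called (3 unadjusted) with a median of 0.29. All 3 medians were near the 0.23 of all genes. Of 7 tested inflammatory mRNAs and their regulators, the kind BEX1 has been described to stabilise, 0 were called (4 unadjusted). Of the 7, 2 were lower and 2 higher without overlap between the groups, as were 2.38% and 22.3% of all genes. Log2 differences of the 7 ran from −1.39 to 0.68 with a median of 0.04. The lowest was that of *Cxcl1*, at low levels (0.523 TPM in homozygous and 3.73 TPM in wild-type hearts). In the other 2 comparisons 0 genes of any of these 4 lists were called.

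Over log2(TPM + 1) in the 9 libraries, *Bex1* and *Tceal7* had a Pearson r of 0.93 and a Spearman rho of 0.93, given as a description of values that share genotype and library. In the 6 wild-type and heterozygous hearts both genes had the same order but for an exchange of wild-type replicates 1 and 2. Among homozygous hearts the order did not match: replicate 3 had the highest *Tceal7* (9.01 TPM) and the lowest *Bex1* (67.9 TPM). *Bex1* and *Bex4* had r of 0.64, *Bex4* and *Tceal8* r of 0.83, and *Tceal7* and *Tceal1* r of −0.71.

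**Figure D4:**
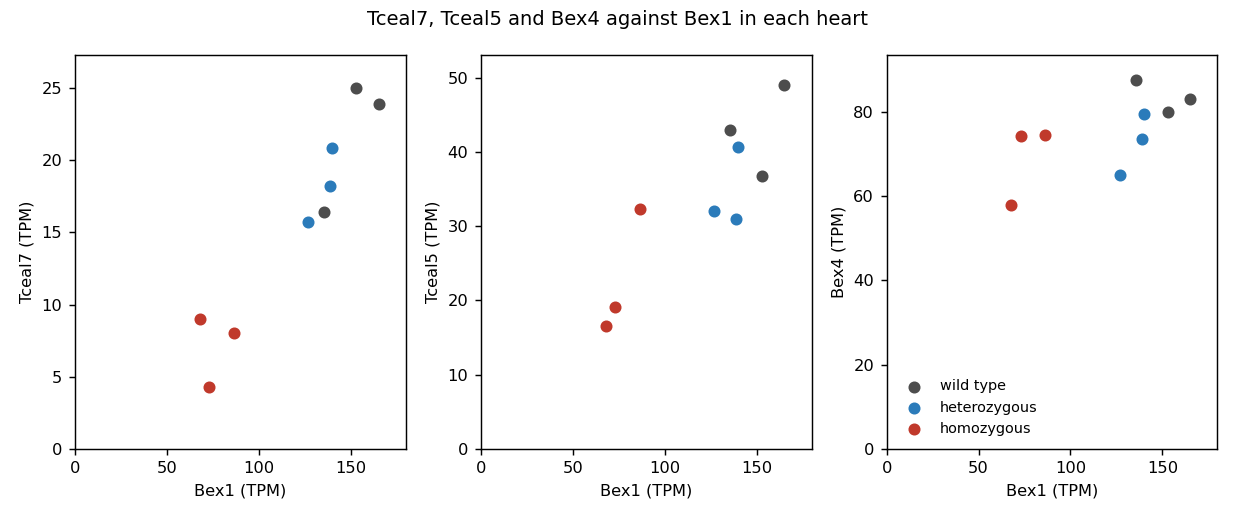
Levels of *Tceal7*, *Tceal5* and *Bex4* (vertical axes, TPM) against *Bex1* (horizontal axis, TPM) in each of the 9 hearts, coloured by genotype; all axes start at 0. The homozygous hearts, at 67.9 to 86.3 TPM of *Bex1*, stand apart for *Tceal7* (4.29 to 9.01 TPM), while for *Tceal5* and *Bex4* 1 and 2 of them reach into the range of the heterozygous hearts.

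Among all other tested genes, the 5 with the highest Pearson r to *Bex1* over the 9 libraries were *A330048O09Rik* (r 0.98, rho 0.96), *Mthfd2* (r 0.97, rho 0.72), *Pcdhga2* (r 0.96, rho 0.80), *Dnaja4* (r 0.96, rho 0.78) and *Pcdhga3* (r 0.95, rho 0.73). *Pcdhga2* and *Pcdhga3* are clustered gamma protocadherins on chromosome 18, and *Pcdhga2* had means of 3.60, 2.30 and 0.263 TPM in wild-type, heterozygous and homozygous hearts. *Mthfd2*, a mitochondrial folate enzyme, had means of 11.7, 11.4 and 8.17 TPM. The 5 most like *Tceal7* were *Acta1* (r 0.96, rho 0.92), *Mthfd2* (r 0.93, rho 0.73), *A330048O09Rik* (r 0.93, rho 0.90), *Pla2g12a* (r 0.93, rho 0.68) and *Nppb* (r 0.92, rho 0.88). *Acta1*, skeletal alpha-actin, had means of 72.3, 71.9 and 25.3 TPM, and *Nppb*, which encodes B-type natriuretic peptide, 673, 530 and 212 TPM. None of these 8 genes lies on the X chromosome, and no p is given because they were chosen for this likeness.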

How the data were processed

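Total RNA from single E18.5 hearts, 3 per genotype, was enriched for mRNA on capture beads and sequenced. Reads were trimmed with Trim Galore (v0.6.10), aligned by STAR (v2.7.4a) to the mm10 assembly and summarised per gene by RSEM (v1.2.28) by the authors, who deposited TPM values per gene to 2 decimals; the annotation release and strandedness are not given in the sources used here. TPM keep no read depth, so depth per library is unknown here and the count-based test of the study could not be run. Each column summed to between 999100 and 999245 TPM, and no column was without a sample.

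Of 24597 symbols, 26 turned into dates by a spreadsheet (at most 0.0921% of a library) were left out. Log2(TPM + 1) of the 13682 genes whose mean reached 1 TPM was fitted over all 9 libraries with limma 3.58.1 (R 4.3.3; trended eBayes, two-sided, Benjamini-Hochberg over all genes, threshold 0.05), after a check on simulated data. The design named genes by rule: the 6 members, their families, called genes of fixed lists and of a 500 kb window, and the 5 genes most like *Bex1* and *Tceal7*. Members and lists were chosen with earlier results of these data known. Genomic positions came from GENCODE M21, which matched 24075 of 24571 symbols, promoters from RefSeq. P-values set a difference of group means against the spread between these hearts, pooled over all genotypes and moderated over all genes. Alternatives covered pseudocount, filter, scaling, variance model, libraries, sex and replicate block.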

Additional observations from a re-analysis of the deposited data

Results flagged for a closer look

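For 2 members the difference between homozygous and wild-type hearts pointed in opposite directions in male and female hearts, with every male homozygous heart on one side of its wild-type counterparts. *Bex2* was lower in males, with 2.36 TPM in 2 homozygous and 2.78 TPM in 2 wild-type hearts (log2 −0.173), and higher in the single female pair, with 3.97 against 3.36 TPM (log2 0.19). *Tceal8* was at 123 against 146 TPM in males (log2 −0.2522) and at 139 against 130 TPM in the female pair (log2 0.10). With 1 female heart in each of these groups, the difference between the sexes was not tested.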

How the results depend on the processing

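Across the alternatives the log2 difference between homozygous and wild-type hearts stayed below 0 for *Bex1* (−1.23 to −0.91 in fits of the gene itself, −0.82 in the female pair and −0.70 for its sum with *Bex4*) and *Tceal7* (−1.76 to −1.15), whereas the number of members called (2) did not hold. It was 1 (*Bex1*) without a filter on low values. With median-ratio scaling it was 4 (*Bex1*, *Bex4*, *Tceal7* and *Tceal8*, all lower). With weighted libraries it was 4 as well (*Bex1*, *Bex4* and *Tceal7* lower, *Tceal1* higher). The number was 0 without the 3 libraries with the most transcripts of other organs, 0 with only the 2 groups compared, and 0 to 2 in fits without 1 library. It was 0 without wild-type replicate 1 or 2, and 1 without each heterozygous replicate and homozygous replicates 1 and 2. The number of other Bex, Tceal, Armcx and Gprasp genes called (0) was 1 (*Tceal5*) with median-ratio scaling, 9 with weighted libraries, and 0 to 4 in fits without 1 library, reaching 4 without wild-type replicate 3 and 1 without homozygous replicate 1. The median of the members (−0.21) was −0.64 with a minimum mean of 5 TPM, which leaves out *Bex2* and *Tceal1*, −0.45 with median-ratio scaling and −0.37 with quantile normalization. Between homozygous and heterozygous hearts the number of members called (0) was 1 with a pseudocount of 0.1, a minimum mean of 5 TPM, quantile normalization, rescaling without mitochondrial and haemoglobin genes, or robust eBayes, and 2 with weighted libraries. The median (−0.08) was −0.46 with a minimum mean of 5 TPM and 0.056 without the 3 libraries, so its sign is not fixed. Between heterozygous and wild-type hearts the median (−0.18) was −0.34 with median-ratio scaling, and weighted libraries called 1 member and 2 other genes. Apart from the filters and the smaller fits, which change the genes or libraries by construction, the cause of these changes was not tested. The share of all genes called under each alternative is not given here, so nothing about the families is read from these counts.

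With the replicate number as a block, 1 member (*Bex1*) was called between homozygous and wild-type hearts and no other count or median moved beyond the spread used above. The numbers were not taken as pairing the hearts. Among 9 pairs of libraries with the same number the correlation of deviations from the group means had a median of 0.04 (−0.03 to 0.36). Of these, 2 were over 0.1 (0.36 and 0.30), each between a wild-type and a heterozygous heart. Among 18 pairs with different numbers the median was −0.02 (−0.31 to 0.12), and 1 was over 0.1. The members *Bex2* and *Tceal1* are low enough that rounding to 2 decimals and the pseudocount weigh more on them, and without read counts no depth limit can be given.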
